A study of Mus musculus with 8 samples.

Results

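The proteasome genes of cultured mouse astrocytes were described here: every gene whose symbol is Psma, Psmb, Psmc, Psmd, Psme, Psmf or Psmg followed by digits, 46 of the 13607 genes with counts. All 46 entered the test. They comprised 7 outer-ring and 7 inner-ring subunits of the core particle, 6 ATPases and 11 non-ATPase subunits of the regulatory particle, 3 chaperones of its base, 4 chaperones of the core, 3 other activators or inhibitors, and the 5 inducible members Psmb8, Psmb9, Psmb10, Psme1 and Psme2. The last 5 are called immunoproteasome members below and the other 41 constitutive members.

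The astrocytes came from C57BL/6J mice with floxed Yap and Taz alleles (Yap1 and Wwtr1), and each of the 4 groups held 2 libraries, A and B. Gliomaspheres carried lentiviral HER2CA, a constitutively active form of the receptor kinase HER2 switched on by doxycycline. They grew in suspension with doxycycline and DMSO and were collected 3 weeks after the start. HER2CA day 15 4OH-TAM astrocytes, called 4OH-TAM-labelled astrocytes from here on, had doxycycline and 1 µM 4-hydroxytamoxifen, which activates the transduced recombinase CreERT2 on the floxed alleles, for 15 days. HER2CA day 15 astrocytes had doxycycline for the same time without 4OH-TAM, and control astrocytes were untransformed and kept without doxycycline. The DMSO label of the HER2CA day 15 group stands beside a protocol that calls such cells untreated, and the labels leave unsaid whether controls carried the lentiviral constructs. They also do not say whether libraries A and B were separate cultures, so the p-values rest on the spread of 2 libraries a group, and that spread may be technical.

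The proteasome degrades proteins tagged with ubiquitin. Its core is a stack of rings in which the Psma subunits form the gates and Psmb5, Psmb6 and Psmb7 carry the active sites; the regulatory particle binds the tag, removes it and threads the protein into the core with its Psmc ATPases. Interferons induce Psmb8, Psmb9 and Psmb10, which take the places of Psmb5, Psmb6 and Psmb7 in newly built cores, and the cap subunits Psme1 and Psme2. The resulting immunoproteasome is best known for producing peptides for MHC class I. Cells short of proteasome activity raise most constitutive subunits together through the transcription factor NRF1, the product of Nfe2l1.

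Depth was lowest in gliomaspheres B, at 15517708 total counts, and highest in HER2CA day 15 B, at 28231426. In gliomaspheres B the ribosomal transcript Rn45s took 36.1% of the counts, against 0.984% to 2.92% in the other 7 libraries, so counts of members called in gliomaspheres are also given without that library. Yap1 was at 107 and 103 CPM (counts per 1e6 counts, with library sizes scaled by TMM factors) in 4OH-TAM-labelled astrocytes, against 101 and 103 CPM in HER2CA day 15. Wwtr1 was at 123 and 122 CPM in 4OH-TAM-labelled astrocytes, against 194 and 210.3 CPM in HER2CA day 15. In gliomaspheres Yap1 was at 131 and 136 CPM and Wwtr1 at 180 and 175 CPM. In control astrocytes Yap1 was at 144 and 136 CPM and Wwtr1 at 177 and 168 CPM. Yap1 thus did not follow the knockout label between the day 15 groups, and both groups lay below gliomaspheres and controls. Counts were given per gene, not per exon, and the reason was not tested. All 5 defining astrocyte markers were measured. The 11 measured astrocyte markers summed to 11685 and 12208 CPM in gliomaspheres, 12854 and 13384 CPM in 4OH-TAM-labelled astrocytes, 2831 and 2911 CPM in HER2CA day 15, and 6222 and 7281 CPM in control astrocytes.

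RefSeq promoters on GRCm38.p6, from 250 bases before the annotated start to 50 after it, were matched for 39 of the 46 members. The genes lie on 16 chromosomes of GRCm38 (GENCODE M21): Psmb8 at chromosome 17, 34197721 to 34201454 (+ strand), Psmb9 beside it at 34181987 to 34187764 (− strand), Psmb10 at chromosome 8, 105935735 to 105938444 (− strand), and Psme1 and Psme2 near each other on chromosome 14, at 55578123 to 55581529 (+ strand) and 55587441 to 55591113 (− strand). Psmc2 spans 21785283 to 21803787 of chromosome 5 (+ strand) and Psmc4 spans 28041707 to 28050101 of chromosome 7 (− strand). The 6 promoters printed here belong to the members whose levels differed most between the groups or whose promoter held a searched motif; each runs 5′ to 3′ on the gene's strand, ends 30 bases after the start, and has the motif in capitals. Psmb8 has 1 interferon-gamma activated site, and Psme1 has 1 interferon-stimulated response element just after its RefSeq start. Both windows lie inside the GENCODE spans of these genes, which start upstream of them at 34197721 and 55578123. The searched window of Psmb9 lies inside its GENCODE span too. Those of Psmd5, Psmd9, Psmd13 and Psmf1 also do, and Psmd9 is among the members with matches counted below. For these genes the sequence before the GENCODE start was thus not searched. Psmb6 and Psmc6 each have 1 antioxidant response element, the class of site that NRF1 and its relative NRF2 bind. Psmc2 (the first of its annotated starts) and Psmc4, ATPase genes with large differences, have none of these 3 motifs in the window.
Psmb8 (chr17:34197945-34198224, + strand): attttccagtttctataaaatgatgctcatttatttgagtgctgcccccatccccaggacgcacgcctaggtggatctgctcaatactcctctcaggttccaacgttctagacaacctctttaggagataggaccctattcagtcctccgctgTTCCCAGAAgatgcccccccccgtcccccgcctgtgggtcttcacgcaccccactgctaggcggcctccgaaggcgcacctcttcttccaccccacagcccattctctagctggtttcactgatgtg
Psme1 (chr14:55578244-55578523, + strand): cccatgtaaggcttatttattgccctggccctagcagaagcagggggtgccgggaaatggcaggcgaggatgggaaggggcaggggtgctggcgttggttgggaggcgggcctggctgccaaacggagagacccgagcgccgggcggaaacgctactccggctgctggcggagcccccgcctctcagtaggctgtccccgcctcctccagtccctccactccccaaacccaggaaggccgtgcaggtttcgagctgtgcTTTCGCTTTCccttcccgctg
Psmb6 (chr11:70525107-70525386, + strand): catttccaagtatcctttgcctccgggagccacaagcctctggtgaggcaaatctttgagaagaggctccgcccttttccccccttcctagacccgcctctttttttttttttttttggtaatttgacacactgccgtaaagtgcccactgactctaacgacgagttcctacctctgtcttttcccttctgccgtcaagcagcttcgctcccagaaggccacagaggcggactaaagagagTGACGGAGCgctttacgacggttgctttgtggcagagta
Psmc6 (chr14:45329574-45329853, + strand): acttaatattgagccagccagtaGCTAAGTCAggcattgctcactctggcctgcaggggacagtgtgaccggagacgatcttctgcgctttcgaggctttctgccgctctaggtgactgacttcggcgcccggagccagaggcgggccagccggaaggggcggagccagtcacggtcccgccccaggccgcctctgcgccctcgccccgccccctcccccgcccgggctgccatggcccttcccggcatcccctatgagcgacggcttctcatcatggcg
Psmc2 (chr5:21785025-21785304, + strand): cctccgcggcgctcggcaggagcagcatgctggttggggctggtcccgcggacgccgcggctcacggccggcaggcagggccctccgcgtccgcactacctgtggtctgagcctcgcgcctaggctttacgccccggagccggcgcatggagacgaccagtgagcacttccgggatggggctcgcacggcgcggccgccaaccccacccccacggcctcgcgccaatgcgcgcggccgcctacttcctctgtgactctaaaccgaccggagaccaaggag
Psmc4 (chr7:28050063-28050342, − strand): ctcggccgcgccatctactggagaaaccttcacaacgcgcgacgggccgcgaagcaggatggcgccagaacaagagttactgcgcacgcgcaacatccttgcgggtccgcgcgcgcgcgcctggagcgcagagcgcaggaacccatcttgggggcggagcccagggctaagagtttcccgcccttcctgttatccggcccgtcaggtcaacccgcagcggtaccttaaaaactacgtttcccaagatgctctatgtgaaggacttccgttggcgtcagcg

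The motifs were searched on both strands of the full 300 bases. The response element to interferon, spelled GAAANNGAAA, was in 5 of the 39 members (Psmb3, Psmd4, Psmd9, Psme1 and Psmg4), or 12.8%, against 3.99% of the 27025 genes with a promoter. The interferon-gamma site TTCNNNGAA was in 3 members (Psmb8, Psmd2 and Psmg1), or 7.69%, against 9.55% of all genes. The antioxidant element TGACNNNGC was in 6 members (Psmb5, Psmb6, Psmc6, Psmd12, Psmd9 and Psme4), or 15.4%, against 14% of all genes. The CCAAT box was in 13 members, or 33.3%, against 41.1% of all genes, and Psmb9 was the single immunoproteasome member with one. A match is a run of letters, not a shown binding site.

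Summed over all 46 members, proteasome transcripts were most abundant in HER2CA day 15 and least abundant in 4OH-TAM-labelled astrocytes. The sum was 4210 and 4115 CPM in gliomaspheres, 3872 and 3788 CPM in 4OH-TAM-labelled astrocytes, 7171 and 7045 CPM in HER2CA day 15, and 5024 and 5080 CPM in control astrocytes. The 4 groups did not overlap. Within this sum, the immunoproteasome members held 1.93% and 1.88% of the members' counts in gliomaspheres, 2.76% and 2.73% in 4OH-TAM-labelled astrocytes, 1.17% and 1.27% in HER2CA day 15, and 2.08% and 2.23% in controls. The HER2CA day 15 libraries thus had the largest total and the smallest immunoproteasome share. In CPM the immunoproteasome members summed to 81.2 and 77.4 in gliomaspheres, the lowest, and 83.6 and 89.8 in HER2CA day 15. They summed to 107 and 103 CPM in 4OH-TAM-labelled astrocytes and 104 and 113 CPM in control astrocytes. In bulk RNA, fewer cells of a type and less RNA per cell cannot be told apart.

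In 4OH-TAM-labelled astrocytes compared with HER2CA day 15, 39 of the 41 constitutive members were lower and 0 higher (edgeR quasi-likelihood, Benjamini-Hochberg adjusted p under 0.05), while 4 of the 5 immunoproteasome members were higher and 1 lower. Of all genes 39.7% were lower and 40.8% higher in that comparison. Of the 39, 34 were at least 1.5-fold lower, against 23.2% of all genes, and 3 immunoproteasome members were at least 1.5-fold higher, against 31.9% of all genes. The median log2 fold change was −0.86 over the constitutive members and 0.01 over all genes tested. Over all 46 members 4 were higher and 40 lower, against 3 higher and 28 lower with no scaling factors and 5 higher and 37 lower with upper-quartile factors, which moved the median of all genes to 0.22. Psma5 and Psme4 were the 2 constitutive members that did not pass.

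In HER2CA day 15 compared with controls the picture was turned round: 33 constitutive members were higher and 1, Psma5, was lower, while 1 immunoproteasome member was higher and 4 were lower. Of all genes 37.3% were higher and 38.4% lower. At least 1.5-fold, 16 constitutive members were higher, against 22.6% of all genes, and 4 immunoproteasome members were lower, against 28.4% of all genes. The constitutive median was 0.46, against −0.02 over all genes tested. Both comparisons use the same HER2CA day 15 libraries, with opposite signs. With upper-quartile factors, which moved the median of all genes to −0.17, 28 of the 46 members were higher and 10 lower in HER2CA day 15 than in controls; with no scaling factors 11 were higher and 4 lower.

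**Figure D1:**
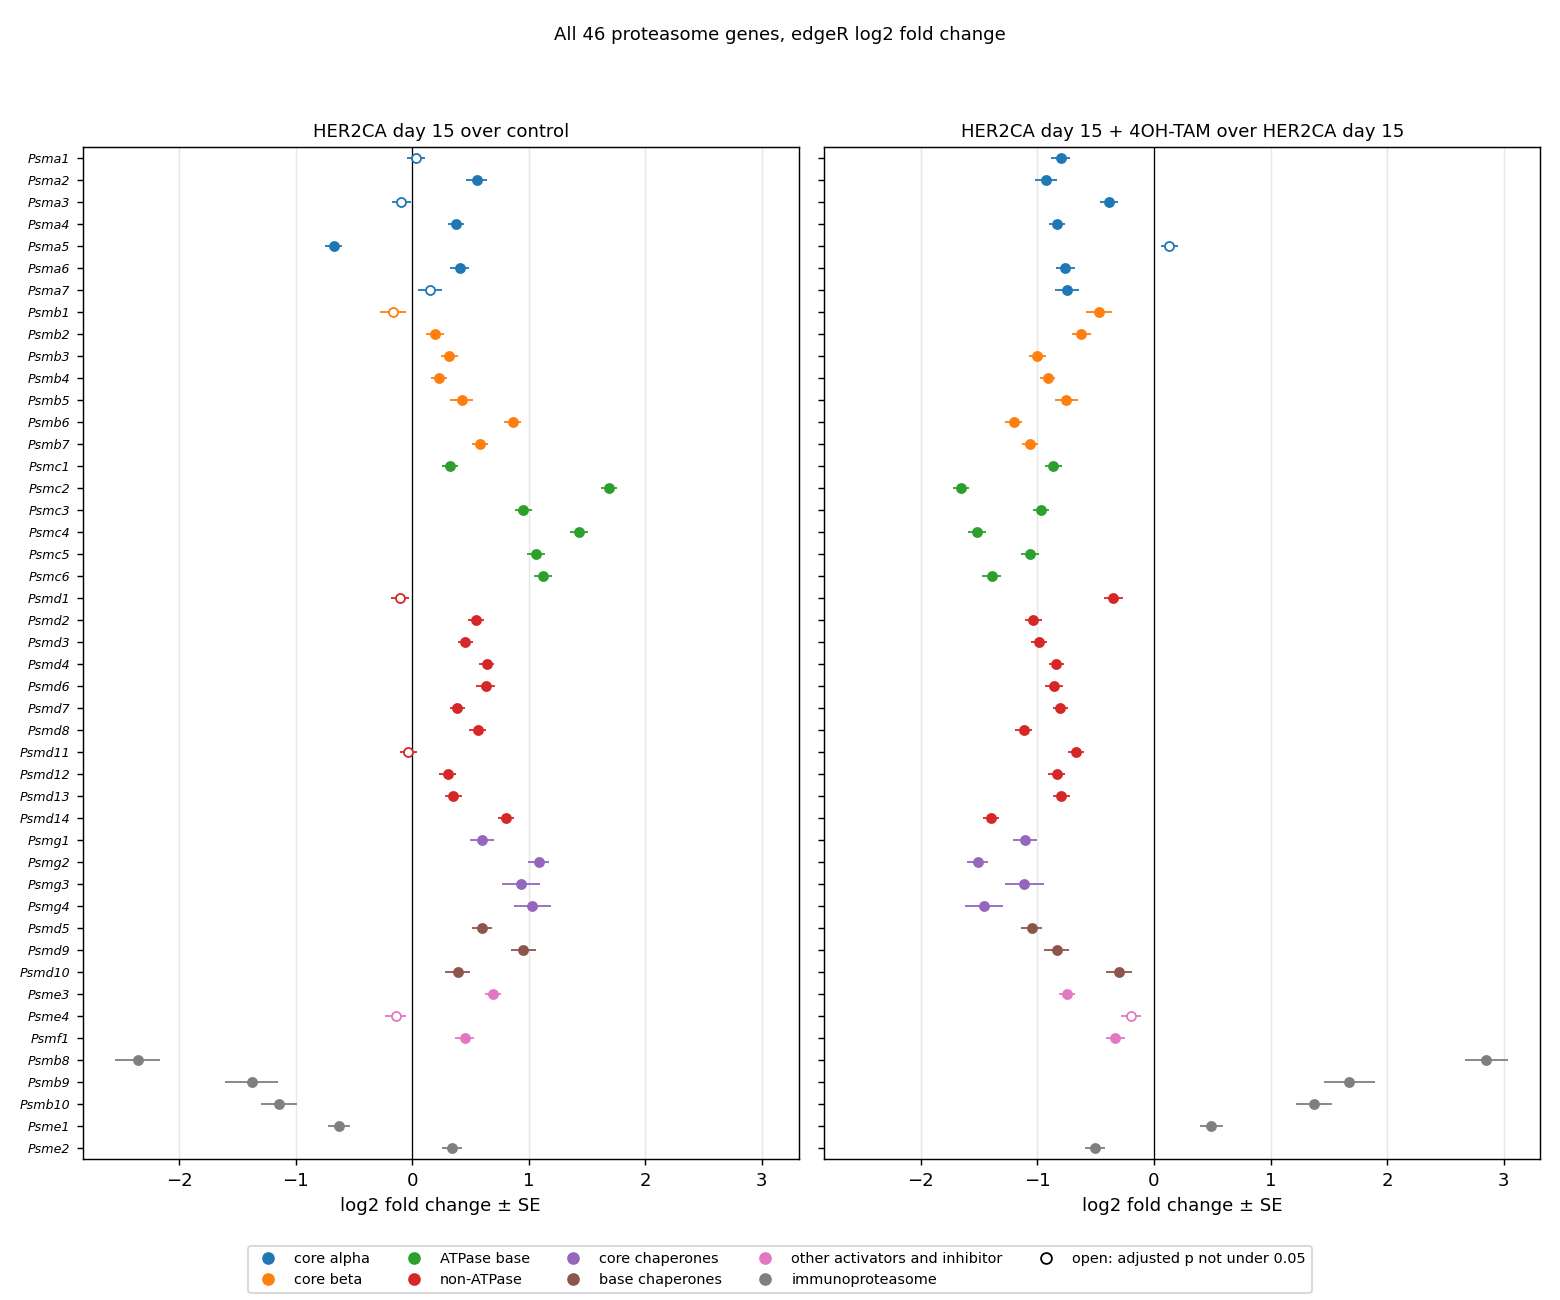
Log2 fold changes with their standard errors (x axis) of all 46 members, by class, in HER2CA day 15 over control (left) and in 4OH-TAM-labelled astrocytes over HER2CA day 15 (right), each group with 2 libraries; open circles did not pass adjusted p under 0.05 in edgeR's quasi-likelihood test. In the right panel 39 of 41 constitutive members lie below 0, past the threshold, and Psmb8, Psmb9, Psmb10 and Psme1 above it.

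The catalytic immunosubunits were lowest in HER2CA day 15. Psmb8, which replaces Psmb5, was at 2.39 and 2.53 CPM in gliomaspheres, 7.89 and 7.80 CPM in 4OH-TAM-labelled astrocytes, 1.05 and 1.10 CPM in HER2CA day 15, and 5.11 and 6.01 CPM in control astrocytes. These levels rest on 57 and 25 counts in gliomaspheres, 206 and 204 in 4OH-TAM-labelled astrocytes, 23 and 32 in HER2CA day 15, and 133 and 146 in controls. No 2 groups overlapped, and 4OH-TAM-labelled astrocytes were the highest. Psmb8 was 7.22-fold higher in 4OH-TAM-labelled astrocytes than in HER2CA day 15 (log2 fold change 2.85, SE 0.184, adjusted p = 1.77e-09, edgeR quasi-likelihood). Psmb8 was 5.11-fold lower in HER2CA day 15 than in controls (log2 fold change −2.35, SE 0.193, adjusted p = 2.93e-08, edgeR quasi-likelihood).

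Psmb9, which replaces Psmb6, was at 1.93 and 1.42 CPM in gliomaspheres, 3.26 and 3.56 CPM in 4OH-TAM-labelled astrocytes, 1.01 and 1.10 CPM in HER2CA day 15, and 2.61 and 2.92 CPM in control astrocytes. Psmb10, which replaces Psmb7, was at 12.6 and 12.6 CPM in gliomaspheres, 12.6 and 12.9 CPM in 4OH-TAM-labelled astrocytes, 4.26 and 5.48 CPM in HER2CA day 15, and 9.68 and 12.2 CPM in control astrocytes. Both were lowest in HER2CA day 15, without overlap with any other group. Psmb9 had a log2 fold change of 1.68 (SE 0.218) in 4OH-TAM-labelled astrocytes over HER2CA day 15 and −1.38 (SE 0.226) in HER2CA day 15 over controls, with edgeR quasi-likelihood adjusted p of 4.18e-06 and 5.34e-05. For Psmb10 the log2 fold changes were 1.37 (SE 0.152) and −1.15 (SE 0.154), with edgeR quasi-likelihood adjusted p of 7.16e-07 and 6.86e-06. The Psmb8, Psmb9 and Psmb10 calls in these 2 comparisons held under all alternatives run, apart from a filter of 5 CPM in 2 libraries, which Psmb9 did not pass. Psmb9 overlaps Tap1, and Psmb8 overlaps Gm20496, on the other strand; no source used here says whether the counting used strand.

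The cap subunits Psme1 and Psme2, which are encoded near each other and join in 1 ring, did not move together. Psme1 was at 38.2 and 30.9 CPM in gliomaspheres, 52.3 and 47.6 CPM in 4OH-TAM-labelled astrocytes, 33.5 and 37.3 CPM in HER2CA day 15, and 53.9 and 55.6 CPM in control astrocytes. Psme2 was at 26.1 and 29.9 CPM in gliomaspheres, 30.9 and 31.4 CPM in 4OH-TAM-labelled astrocytes, 43.8 and 44.8 CPM in HER2CA day 15, and 33.1 and 36.7 CPM in control astrocytes. HER2CA day 15 thus had the highest Psme2, while its Psme1 overlapped that of gliomaspheres and lay below the other groups. In 4OH-TAM-labelled astrocytes over HER2CA day 15 the log2 fold change was 0.49 (SE 0.0969) for Psme1 and −0.51 (SE 0.0872) for Psme2, with edgeR quasi-likelihood adjusted p of 0.000254 and 7.46e-05. Over controls, HER2CA day 15 gave −0.63 (SE 0.0967) for Psme1 and 0.35 (SE 0.0868) for Psme2, with edgeR quasi-likelihood adjusted p of 2.9e-05 and 0.0021. These 4 calls were lost with no scaling factors (adjusted p from 0.0516 to 0.4445, edgeR quasi-likelihood), and that of Psme2 over controls also with upper-quartile factors (0.0596). With no scaling factors Psme1 and Psme2 had log2 fold changes of 0.62 and −0.39 over HER2CA day 15, and −0.68 and 0.29 over controls. Psme2 has a near copy, Psme2b, at 1.17 to 2.31 CPM in the 8 libraries. No source used here says how reads matching both were counted, so how much of Psme2 is uncertain cannot be given. Psme1 overlaps Emc9 on the other strand.

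**Figure D2:**
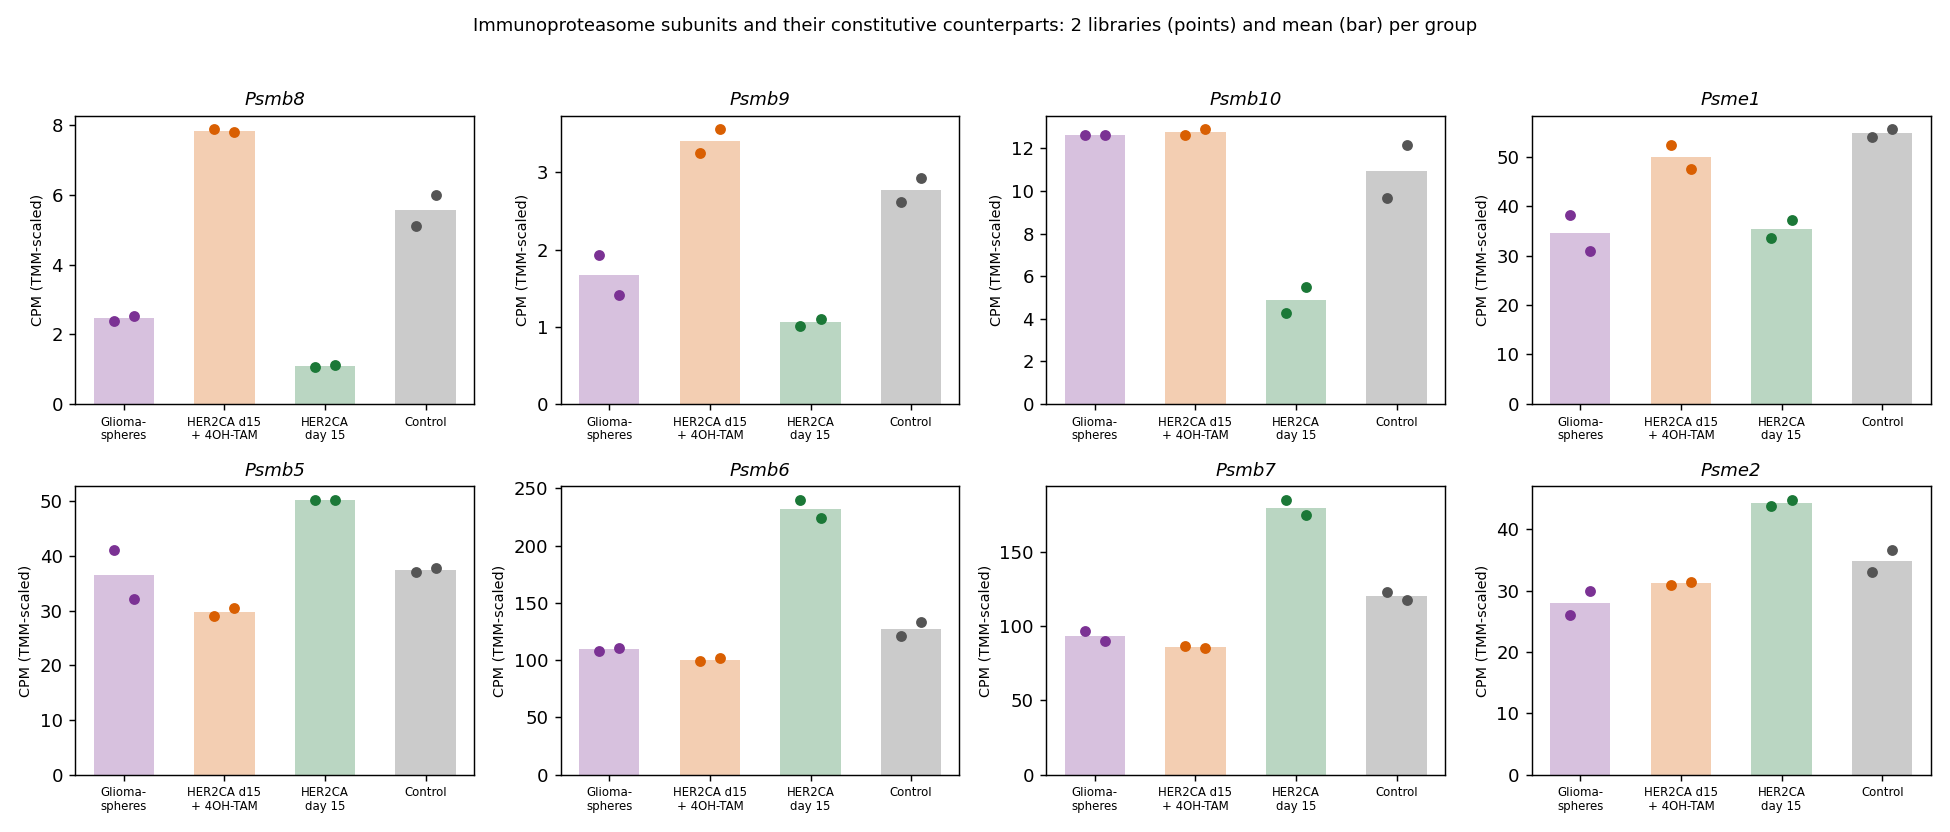
CPM, scaled by TMM factors (y axis), of the 5 immunoproteasome members and of Psmb5, Psmb6 and Psmb7 in the 4 groups; points are the 2 libraries and bars their mean. Psmb8, Psmb9 and Psmb10 are lowest in HER2CA day 15, where Psmb5, Psmb6, Psmb7 and Psme2 are highest.

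The constitutive catalytic subunits went the other way. Psmb5, the chymotrypsin-like site, was at 41.0 and 32.1 CPM in gliomaspheres, 29.1 and 30.5 CPM in 4OH-TAM-labelled astrocytes, 50.2 and 50.2 CPM in HER2CA day 15, and 37.1 and 37.8 CPM in control astrocytes. Psmb6, the caspase-like site, was at 108 and 111 CPM in gliomaspheres, 99.2 and 102 CPM in 4OH-TAM-labelled astrocytes, 239.8 and 224 CPM in HER2CA day 15, and 121 and 134 CPM in control astrocytes. Psmb7, the trypsin-like site, was at 97.0 and 90.2 CPM in gliomaspheres, 86.9 and 85.1 CPM in 4OH-TAM-labelled astrocytes, 185 and 175 CPM in HER2CA day 15, and 123 and 118 CPM in control astrocytes. HER2CA day 15 was highest for each of the 3, without overlap. The log2 fold changes in 4OH-TAM-labelled astrocytes over HER2CA day 15 were −0.75 for Psmb5, −1.20 for Psmb6 and −1.06 for Psmb7, with edgeR quasi-likelihood adjusted p of 3.62e-06, 7.7e-10 and 2.07e-09. Over controls, HER2CA day 15 had values of 0.42, 0.86 and 0.58, with edgeR quasi-likelihood adjusted p of 0.000863, 3.34e-08 and 1.74e-06.

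To set each immunosubunit beside the subunit it replaces, levels were divided by the length of the gene's exons in kb. On this scale Psmb8 made up 3.12% and 4.17% of the Psmb8 and Psmb5 pair in gliomaspheres, 13% and 12.4% in 4OH-TAM-labelled astrocytes, 1.15% and 1.20% in HER2CA day 15, and 7.07% and 8.08% in controls. Psmb9 made up 1.04% and 0.748% of its pair with Psmb6 in gliomaspheres, 1.90% and 2.02% in 4OH-TAM-labelled astrocytes, 0.248% and 0.290% in HER2CA day 15, and 1.25% and 1.28% in controls. Psmb10 made up 10.3% and 11.0% of its pair with Psmb7 in gliomaspheres, 11.4% and 11.8% in 4OH-TAM-labelled astrocytes, 2.0% and 2.71% in HER2CA day 15, and 6.53% and 8.38% in controls. The constitutive transcript was the larger part of every pair in every library, and each share was lowest in HER2CA day 15.

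The count ratio of immunosubunit to constitutive subunit was 12.3-fold higher for Psmb8, 7.43-fold higher for Psmb9 and 5.51-fold higher for Psmb10 in 4OH-TAM-labelled astrocytes than in HER2CA day 15. The ratio was 6.89-fold, 4.76-fold and 3.35-fold lower in HER2CA day 15 than in controls for the same 3 pairs. Such ratios are taken within a library and do not depend on scaling factors. With 2 libraries a group an exact permutation test of a ratio cannot go below p = 0.333 (two-sided), so no test was made; the 2 groups of each comparison did not overlap. Gliomaspheres differed between the pairs: against controls the ratio was 2.18-fold lower for Psmb8 and 1.44-fold lower for Psmb9, but 1.5-fold higher for Psmb10, again without overlap. The combined Psme1 and Psme2 counts, set against the mean of the 6 ATPases, gave a ratio of 0.524 and 0.532 in gliomaspheres, 0.742 and 0.685 in 4OH-TAM-labelled astrocytes, 0.281 and 0.309 in HER2CA day 15, and 0.684 and 0.696 in controls.

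**Figure D3:**
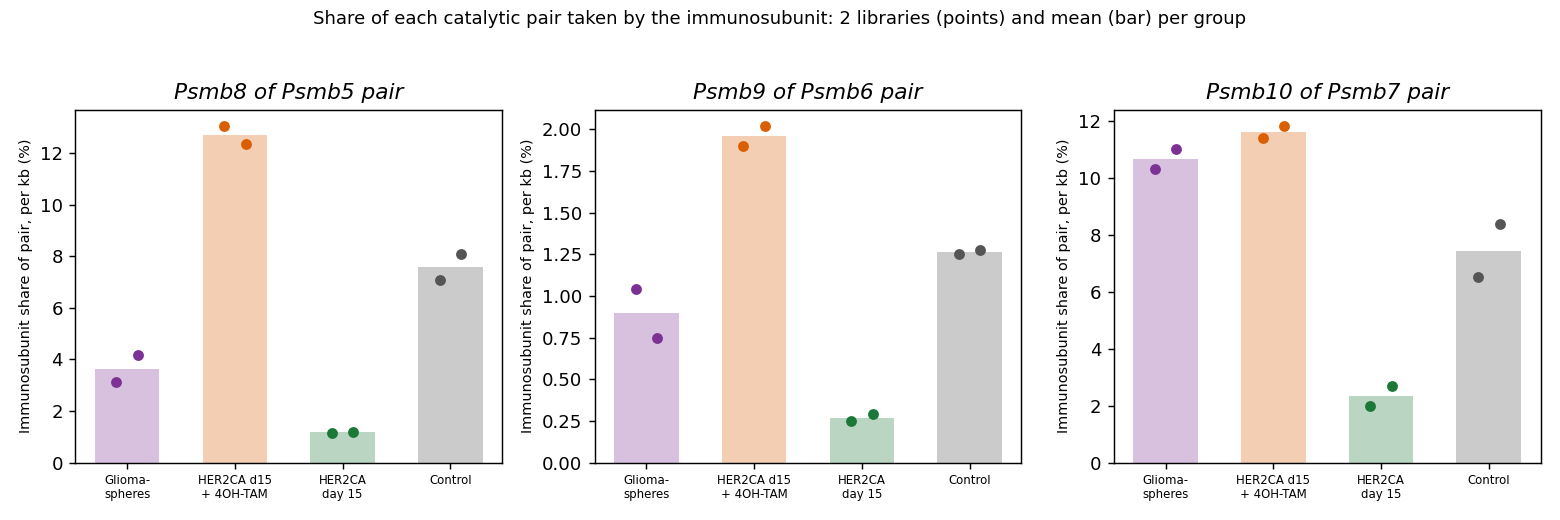
Share of each catalytic pair held by the immunosubunit (y axis, percent of the pair's CPM per kb of exon) in the 4 groups; points are the 2 libraries and bars their mean. Psmb8 holds 12.4% to 13% in 4OH-TAM-labelled astrocytes and 1.15% to 1.20% in HER2CA day 15.

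Most outer-ring genes, Psma1 to Psma7, and inner-ring genes were highest in HER2CA day 15. Comparing 4OH-TAM-labelled astrocytes with HER2CA day 15, 6 of 7 outer-ring genes and 7 of 7 inner-ring genes were lower, with medians of −0.76 and −0.91, against 39.7% of all genes. In HER2CA day 15 compared with controls 3 outer-ring genes were higher, 1 was lower and 3 did not pass, with a median of 0.15, while 6 of 7 inner-ring genes were higher, with a median of 0.32. The shares of all genes there were 37.3% higher and 38.4% lower. Psma2 was the outer-ring gene with the largest increase in HER2CA day 15, at 184 and 178 CPM there against 120.4 and 126 CPM in control astrocytes (log2 fold change 0.55, SE 0.0936, adjusted p = 7.11e-05, edgeR quasi-likelihood). It was at 96.9 and 75.0 CPM in gliomaspheres and at 99.2 and 90.9 CPM in 4OH-TAM-labelled astrocytes, below both other groups; Psma2 overlaps AW209491 on the same strand. Psmb3, an inner-ring subunit without an active site, was at 76.6 and 69.0 CPM in gliomaspheres, 52.7 and 53.3 CPM in 4OH-TAM-labelled astrocytes, 108 and 105 CPM in HER2CA day 15, and 83.2 and 87.1 CPM in control astrocytes. Psmb1, another such subunit, was at 116 and 80.2 CPM in gliomaspheres, 93.0 and 91.9 CPM in 4OH-TAM-labelled astrocytes, 129.7 and 126 CPM in HER2CA day 15, and 144 and 143 CPM in control astrocytes. The 4 groups were separate for Psmb3, while the gliomaspheres spanned the 4OH-TAM-labelled astrocytes for Psmb1.

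Psma5, an outer-ring subunit, stood apart from the other constitutive members. It was at 74.4 and 77.6 CPM in gliomaspheres, 60.0 and 57.2 CPM in 4OH-TAM-labelled astrocytes, 53.9 and 53.1 CPM in HER2CA day 15, and 85.4 and 85.3 CPM in control astrocytes. HER2CA day 15 was lowest and controls highest, with no overlap. The log2 fold change was −0.67 in HER2CA day 15 over controls (SE 0.0704, adjusted p = 4.4e-07, edgeR quasi-likelihood) and 0.13 in 4OH-TAM-labelled astrocytes over HER2CA day 15 (SE 0.071, adjusted p = 0.1 with edgeR quasi-likelihood). The second difference passed with upper-quartile factors (0.34, adjusted p = 0.000467, edgeR quasi-likelihood), with the filter of 5 CPM (0.20, adjusted p = 0.0159) and in a fit of the 2 groups alone (0.15, adjusted p = 0.0394). Psma1, which had the largest constitutive decrease in gliomaspheres relative to controls, was at 73.0 and 61.4 CPM in gliomaspheres, 81.5 and 77.8 CPM in 4OH-TAM-labelled astrocytes, 140.4 and 137 CPM in HER2CA day 15, and 134 and 137 CPM in control astrocytes. Gliomaspheres were lowest for it, and HER2CA day 15 overlapped controls.

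Among constitutive members, the ATPase gene Psmc2 had the largest difference both in 4OH-TAM-labelled astrocytes over HER2CA day 15 and in HER2CA day 15 over controls. All 6 ATPases of the regulatory particle were at least 1.5-fold lower in 4OH-TAM-labelled astrocytes than in HER2CA day 15, with a median of −1.22, against 23.2% of all genes. All 6 were higher in HER2CA day 15 than in controls, with a median of 1.09, against 37.3% of all genes. Among them 5 were at least 1.5-fold higher, against 22.6% of all genes. Psmc2 was at 99.3 and 100.2 CPM in gliomaspheres, 94.9 and 100.3 CPM in 4OH-TAM-labelled astrocytes, 312 and 304 CPM in HER2CA day 15, and 91.8 and 99.2 CPM in control astrocytes. HER2CA day 15 was far above the other groups, which overlapped. Psmc2 was 3.16-fold lower in 4OH-TAM-labelled astrocytes than in HER2CA day 15 (log2 fold change −1.66, SE 0.0697, adjusted p = 1.67e-11, edgeR quasi-likelihood). It was 3.23-fold higher in HER2CA day 15 than in controls (log2 fold change 1.69, SE 0.0698, adjusted p = 1.65e-11, edgeR quasi-likelihood).

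Psmc4 was at 88.9 and 96.4 CPM in gliomaspheres, 82.8 and 87.9 CPM in 4OH-TAM-labelled astrocytes, 246 and 243 CPM in HER2CA day 15, and 84.4 and 96.3 CPM in control astrocytes. Psmc6 was at 132 and 110.0 CPM in gliomaspheres, 149 and 146 CPM in 4OH-TAM-labelled astrocytes, 393 and 380.2 CPM in HER2CA day 15, and 181 and 174 CPM in control astrocytes. For Psmc4 the other groups lay together, between 82.8 and 96.4 CPM; for Psmc6 all 4 were separate. The log2 fold changes in HER2CA day 15 over controls were 1.43 for Psmc4, 1.12 for Psmc6, 1.06 for Psmc5, 0.95 for Psmc3 and 0.33 for Psmc1. The Psmc1 call was lost with no scaling factors (adjusted p = 0.464, edgeR quasi-likelihood). Psmc1 was at 167 and 149 CPM in gliomaspheres, 139.5 and 137 CPM in 4OH-TAM-labelled astrocytes, 260.2 and 244 CPM in HER2CA day 15, and 201 and 201 CPM in control astrocytes. Psmc2, Psmc3, Psmc4 and Psmc5 did not pass in 4OH-TAM-labelled astrocytes over controls, with log2 fold changes of 0.03, −0.02, −0.08 and 0.00.

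The 6 ATPases form a single ring with 1 copy of each, and their levels per kb can be set side by side. Mean levels in HER2CA day 15 ran from 109 CPM per kb (Psmc3) to 173 CPM per kb (Psmc6), a 1.59-fold spread, and in controls from 53.5 CPM per kb (Psmc2) to 126 CPM per kb (Psmc1), a 2.36-fold spread. The range was 54.7 to 86.9 CPM per kb in 4OH-TAM-labelled astrocytes (1.59-fold) and 54.2 to 99.2 CPM per kb in gliomaspheres (1.83-fold). Psmc2 thus held the lowest level per kb of the 6 in controls, at 53.5 ± 2.89 CPM per kb, and 173 ± 3.30 CPM per kb in HER2CA day 15, the level of Psmc6 (SD, n = 2 each).

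**Figure D4:**
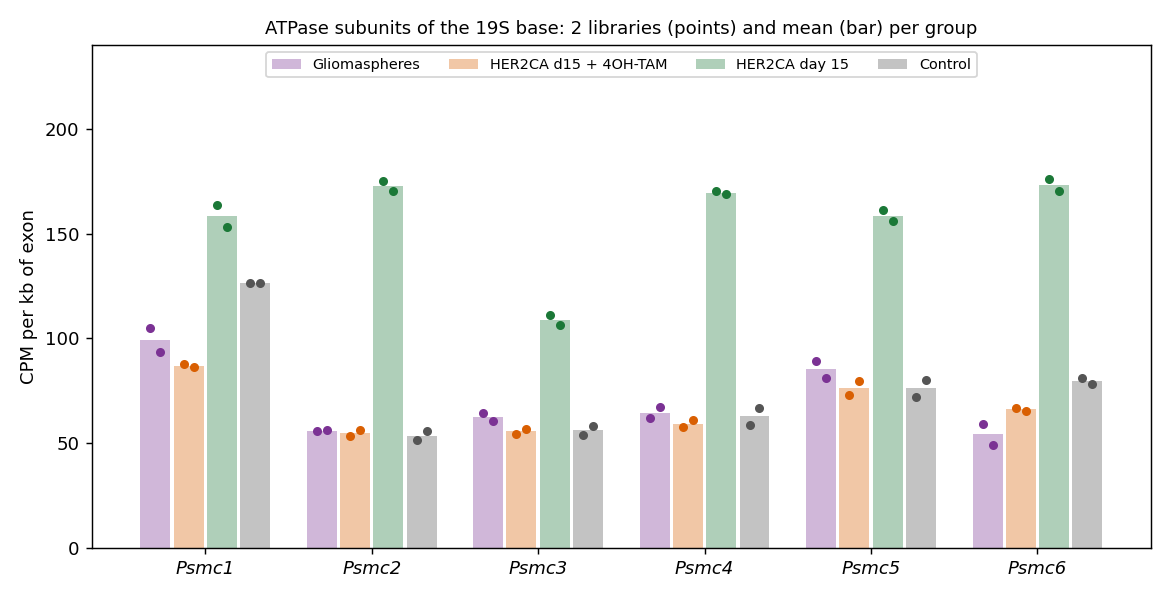
Levels of the 6 ATPase genes in CPM per kb of exon (y axis) in the 4 groups; points are the 2 libraries and bars their mean. All 6 are highest in HER2CA day 15, and Psmc1 is the one whose control level, 126 CPM per kb, comes nearest to it.

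Of the 11 non-ATPase subunits, 11 were lower in 4OH-TAM-labelled astrocytes than in HER2CA day 15 (median −0.84), against 39.7% of all genes. In HER2CA day 15 compared with controls 9 were higher (median 0.46), against 37.3% of all genes, with Psmd1 and Psmd11 not passing. Psmd14, the deubiquitinase that cuts the tag from the substrate, was at 119.8 and 114 CPM in gliomaspheres, 110.4 and 109.7 CPM in 4OH-TAM-labelled astrocytes, 302 and 279.7 CPM in HER2CA day 15, and 168 and 165 CPM in control astrocytes. It was highest in HER2CA day 15 and lowest in 4OH-TAM-labelled astrocytes, with no overlap. Its log2 fold change was −1.40 in 4OH-TAM-labelled astrocytes over HER2CA day 15 (SE 0.0688, adjusted p = 8.44e-11, edgeR quasi-likelihood) and 0.80 in HER2CA day 15 over controls (SE 0.0677, adjusted p = 3.97e-08, edgeR quasi-likelihood).

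Psmd11, a scaffold of the lid, was at 113 and 123 CPM in gliomaspheres, 112 and 106 CPM in 4OH-TAM-labelled astrocytes, 168 and 178 CPM in HER2CA day 15, and 179.8 and 175 CPM in control astrocytes. HER2CA day 15 overlapped controls, and both lay above the other groups; with no scaling factors the difference between 4OH-TAM-labelled astrocytes and HER2CA day 15 did not pass (adjusted p = 0.11, edgeR quasi-likelihood). Psmd2, a large scaffold subunit of the base, was at 324 and 339.5 CPM in gliomaspheres, 301 and 291 CPM in 4OH-TAM-labelled astrocytes, 610.0 and 602 CPM in HER2CA day 15, and 415 and 416 CPM in control astrocytes. Psmd4, a ubiquitin receptor, was at 104 and 105 CPM in gliomaspheres, 101 and 97.9 CPM in 4OH-TAM-labelled astrocytes, 181 and 174 CPM in HER2CA day 15, and 111 and 116 CPM in control astrocytes. Psmd3, a lid subunit, was at 164 and 170.5 CPM in gliomaspheres, 134 and 133 CPM in 4OH-TAM-labelled astrocytes, 263 and 265 CPM in HER2CA day 15, and 186 and 199 CPM in control astrocytes. All 3 were separate between all groups and highest in HER2CA day 15.

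All 7 assembly chaperones were highest in HER2CA day 15. The 4 core chaperones, which pair and arrange the ring subunits, were all at least 1.5-fold lower in 4OH-TAM-labelled astrocytes than in HER2CA day 15 (median −1.28), against 23.2% of all genes. All 4 were at least 1.5-fold higher in HER2CA day 15 than in controls (median 0.98), against 22.6% of all genes. Psmg2 was at 19.1 and 23.0 CPM in gliomaspheres, 17.8 and 17.6 CPM in 4OH-TAM-labelled astrocytes, 49.9 and 51.0 CPM in HER2CA day 15, and 24.0 and 23.5 CPM in control astrocytes. Psmg4 was at 3.94 and 2.93 CPM in gliomaspheres, 3.83 and 3.94 CPM in 4OH-TAM-labelled astrocytes, 10.6 and 10.7 CPM in HER2CA day 15, and 4.49 and 5.97 CPM in control astrocytes. HER2CA day 15 stood above each other group for both. Psmg1 was at 13.3 and 13.3 CPM in gliomaspheres, 11.1 and 12.2 CPM in 4OH-TAM-labelled astrocytes, 25.1 and 25.1 CPM in HER2CA day 15, and 17.6 and 15.4 CPM in control astrocytes. Psmg3 was at 9.97 and 6.58 CPM in gliomaspheres, 6.55 and 7.69 CPM in 4OH-TAM-labelled astrocytes, 13.7 and 17.0 CPM in HER2CA day 15, and 7.45 and 8.69 CPM in control astrocytes. These too were highest in HER2CA day 15, and the other groups overlapped for Psmg3. The log2 fold change in HER2CA day 15 over controls was 1.09 for Psmg2 (SE 0.0905, adjusted p = 3.5e-08, edgeR quasi-likelihood) and 1.03 for Psmg4 (SE 0.157, adjusted p = 2.46e-05, edgeR quasi-likelihood).

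The 3 base chaperones, which hold ATPases until the base is built, were lower in 4OH-TAM-labelled astrocytes than in HER2CA day 15, against 39.7% of all genes. All 3 were higher in HER2CA day 15 than in controls, against 37.3% of all genes. Psmd9 was at 31.3 and 24.7 CPM in gliomaspheres, 22.6 and 26.1 CPM in 4OH-TAM-labelled astrocytes, 42.2 and 44.7 CPM in HER2CA day 15, and 22.6 and 22.3 CPM in control astrocytes. Psmd5 was at 52.5 and 51.8 CPM in gliomaspheres, 66.1 and 68.6 CPM in 4OH-TAM-labelled astrocytes, 127 and 152 CPM in HER2CA day 15, and 95.7 and 88.4 CPM in control astrocytes. Gliomaspheres were the lowest for Psmd5 but not for Psmd9. Psmd9 had a log2 fold change of 0.95 and Psmd5 of 0.60 in HER2CA day 15 over controls (edgeR quasi-likelihood adjusted p of 9.11e-07 and 1.19e-05), and the Psmd5 call was lost with no scaling factors (0.118).

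Among the other activators and the inhibitor, Psme3, the nuclear cap subunit, was at 163 and 179.8 CPM in gliomaspheres, 151 and 152 CPM in 4OH-TAM-labelled astrocytes, 255 and 252 CPM in HER2CA day 15, and 157 and 156 CPM in control astrocytes. HER2CA day 15 was above the other groups. Psmf1, an inhibitor of the isolated core, was at 37.1 and 38.2 CPM in gliomaspheres, 45.6 and 43.4 CPM in 4OH-TAM-labelled astrocytes, 56.2 and 55.7 CPM in HER2CA day 15, and 38.3 and 43.7 CPM in control astrocytes. Psme4, a large alternative cap, was at 123 and 129.9 CPM in gliomaspheres, 112 and 101 CPM in 4OH-TAM-labelled astrocytes, 129 and 116 CPM in HER2CA day 15, and 147 and 123 CPM in control astrocytes. It did not pass in 4OH-TAM-labelled astrocytes over HER2CA day 15 (log2 fold change −0.20, adjusted p = 0.0548) or in HER2CA day 15 over controls (−0.14, adjusted p = 0.161, both edgeR quasi-likelihood).

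Measured against controls, 4OH-TAM-labelled astrocytes had 32 constitutive members lower and 0 higher, against 28.2% and 31% of all genes, and 7 of them were at least 1.5-fold lower, against 9.42% of all genes. The constitutive median was −0.43, against 0.00 over all genes tested. All 7 outer-ring, all 7 inner-ring and all 11 non-ATPase members were lower, whereas 2 of 6 ATPases were. Psma1 had the largest decrease, with a log2 fold change of −0.77 (SE 0.0789, adjusted p = 1.16e-06, edgeR quasi-likelihood). Of the immunoproteasome members Psmb8 was higher, with a log2 fold change of 0.50 (SE 0.141, adjusted p = 0.00704, edgeR quasi-likelihood), and the other 4 did not pass, with values from −0.16 (Psme2) to 0.30 (Psmb9). The Psmb8 call was lost without control replicate A (adjusted p = 0.0818, edgeR quasi-likelihood), with no scaling factors (0.241) and in DESeq2 (0.06). With no scaling factors 0 members passed in either direction, and DESeq2 left 0 higher and 31 lower. The constitutive median with no scaling factors was −0.36. Of all genes 2115 were then higher and 539 lower, against 4221 and 3840 with TMM factors.

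Gliomaspheres had 25 constitutive members lower and 1 higher than controls, against 32% and 32.5% of all genes, with a median of −0.23, and 3 were at least 1.5-fold lower, against 17.1% of all genes. All 7 outer-ring genes were lower, led by Psma1 (log2 fold change −1.0, SE 0.0816, adjusted p = 5.54e-08, edgeR quasi-likelihood). The Psma5 call among them was lost in several alternatives, given below. Psmd5 (−0.82) and Psmd11 (−0.59) were the other constitutive members at least 1.5-fold lower, and Psmd9 (0.35) was the single member higher. Psmc2, Psmc3, Psmc4 and Psmc5 did not pass, with values from 0.03 to 0.17. Of the immunoproteasome members 4 were lower: Psmb8 (−1.19, SE 0.183), Psmb9 (−0.65, SE 0.226), Psme1 (−0.64, SE 0.101) and Psme2 (−0.33, SE 0.0936), with edgeR quasi-likelihood adjusted p of 4.54e-05, 0.0206, 5.37e-05 and 0.00588. Psmb10 had a log2 fold change of 0.21 and did not pass (adjusted p = 0.215, edgeR quasi-likelihood).

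The Psmb9 call in gliomaspheres over controls was lost without gliomaspheres replicate B (adjusted p = 0.092, edgeR quasi-likelihood), without control replicate B (0.09) and in DESeq2 (0.104). The Psme2 call was lost without gliomaspheres replicate A (0.108), without control replicate B (0.0636) and with no scaling factors (0.0714). Over all 46 members, 29 were lower and 3 higher without gliomaspheres replicate B, 22 lower and 1 higher without replicate A, and 15 lower and 0 higher with no scaling factors. Psma5 (log2 fold change −0.17) was at the edge of the threshold, with adjusted p = 0.0475, edgeR quasi-likelihood. It lost its call with relative log expression factors (0.0671), no scaling factors (0.177), the 5 CPM filter (0.0547) and the replicate block (0.0514). The same held in a fit of the 2 groups alone (0.095) and in DESeq2 (0.123). Its call was also lost without gliomaspheres replicate A, control replicate A or control replicate B, with log2 fold changes of −0.14, −0.17 and −0.17.

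**Figure D5:**
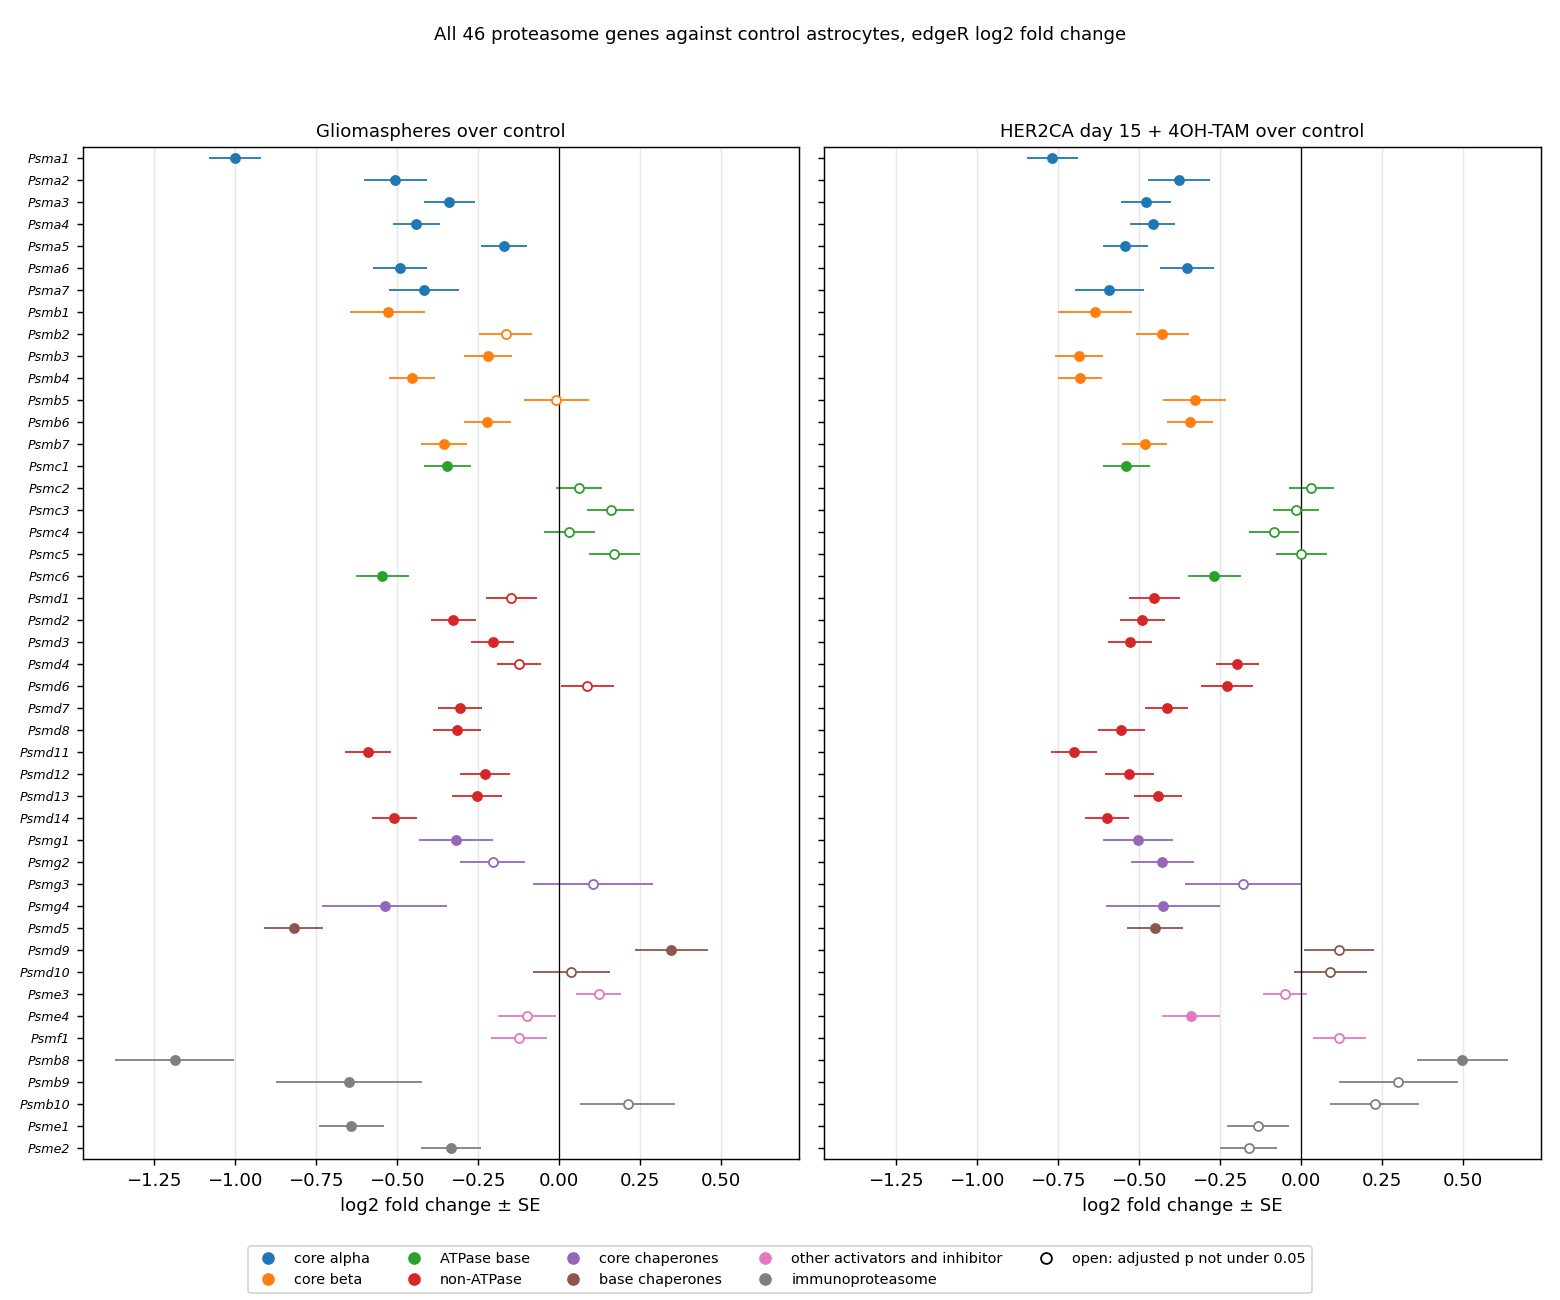
Log2 fold changes with their standard errors (x axis) of all 46 members, by class, in gliomaspheres over control (left) and in 4OH-TAM-labelled astrocytes over control (right), each group with 2 libraries; open circles did not pass adjusted p under 0.05 in edgeR's quasi-likelihood test. Most constitutive members lie below 0 in both panels, while Psmb8 is at −1.19 on the left and 0.50 on the right.

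Compared with HER2CA day 15, gliomaspheres had 38 constitutive members lower and 1, Psma5, higher, against 40.4% and 38.4% of all genes, with a median of −0.69. Of the 38, 26 were at least 1.5-fold lower, against 26.9% of all genes, led by Psmc6 (−1.67) and Psmc2 (−1.63). Over all 46 members 4 were higher and 39 lower, and without gliomaspheres replicate B 4 were higher and 36 lower. Psmb10 (1.36, SE 0.159), Psmb8 (1.17, SE 0.238) and Psmb9 (0.73, SE 0.267) were higher, with edgeR quasi-likelihood adjusted p of 1.34e-06, 0.000359 and 0.0213; all 3 were at least 1.5-fold higher, against 29.7% of all genes. The Psmb9 call was lost without gliomaspheres replicate A (adjusted p = 0.401, edgeR quasi-likelihood), without either HER2CA day 15 library (0.0687 without A, 0.0509 without B), in DESeq2 (0.0854) and with no scaling factors (0.312). Psme2 was lower (−0.68, adjusted p = 6.92e-06, edgeR quasi-likelihood), and Psme1 did not pass.

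Compared with 4OH-TAM-labelled astrocytes, gliomaspheres differed less in the constitutive members: 15 were higher and 4 lower, against 31.3% and 29.7% of all genes, with a median of 0.17. These counts depended on the processing. Over all 46 members 15 were higher and 7 lower, but 6 were higher and 9 lower with upper-quartile factors and 0 higher and 4 lower with no scaling factors. Leaving out gliomaspheres replicate B gave 16 and 6, leaving out gliomaspheres replicate A gave 13 and 9, leaving out 4OH-TAM replicate A gave 9 and 4, and leaving out replicate B gave 7 and 7. Psmb8 (−1.69, SE 0.175), Psmb9 (−0.95, SE 0.218) and Psme1 (−0.51, SE 0.101) were lower in gliomaspheres, with edgeR quasi-likelihood adjusted p of 9.31e-07, 0.00158 and 0.000486, and these 3 held under all alternatives in which they were tested. Psmb8 and Psmb9 were the 2 members at least 1.5-fold lower, against 17.7% of all genes. Psmb10, at 12.6 CPM in both gliomasphere libraries, did not pass (−0.02, adjusted p = 0.932, edgeR quasi-likelihood).

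Genes that build or serve the proteasome without carrying a Psm symbol were examined as a list of partners, of which 21 were measured. In 4OH-TAM-labelled astrocytes compared with HER2CA day 15, 17 were lower and 1 higher (median −0.84), against 39.7% and 40.8% of all genes. In HER2CA day 15 compared with controls 16 were higher and 2 lower (median 0.55), against 37.3% and 38.4% of all genes. Pomp, the chaperone that matures the core, was at 84.5 and 67.7 CPM in gliomaspheres, 54.6 and 54.3 CPM in 4OH-TAM-labelled astrocytes, 108 and 106 CPM in HER2CA day 15, and 58.6 and 65.0 CPM in control astrocytes. Adrm1, a ubiquitin receptor of the regulatory particle, was at 61.1 and 64.9 CPM in gliomaspheres, 49.3 and 47.1 CPM in 4OH-TAM-labelled astrocytes, 92.5 and 94.2 CPM in HER2CA day 15, and 55.4 and 57.3 CPM in control astrocytes. Akirin2, which brings proteasomes into the nucleus, was at 50.2 and 49.8 CPM in gliomaspheres, 61.1 and 64.0 CPM in 4OH-TAM-labelled astrocytes, 144 and 140.1 CPM in HER2CA day 15, and 76.2 and 73.3 CPM in control astrocytes. All 3 were highest in HER2CA day 15 without overlap.

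Of 6 ubiquitin and ubiquitin-activating enzyme genes, 6 were lower in 4OH-TAM-labelled astrocytes than in HER2CA day 15, against 39.7% of all genes. In HER2CA day 15 compared with controls 5 were higher, against 37.3% of all genes. Nfe2l1, which encodes NRF1, was at 513 and 525 CPM in gliomaspheres, 751 and 820.1 CPM in 4OH-TAM-labelled astrocytes, 1536 and 1536 CPM in HER2CA day 15, and 711 and 723 CPM in control astrocytes. Nfe2l2, which encodes NRF2, was at 259 and 293 CPM in gliomaspheres, 345 and 355 CPM in 4OH-TAM-labelled astrocytes, 595 and 565 CPM in HER2CA day 15, and 235 and 249 CPM in control astrocytes. Both transcripts were highest in HER2CA day 15. The log2 fold change in 4OH-TAM-labelled astrocytes over HER2CA day 15 was −0.97 for Nfe2l1 and −0.73 for Nfe2l2 (edgeR quasi-likelihood adjusted p of 1.21e-08 and 5.48e-07), and in HER2CA day 15 over controls it was 1.10 and 1.26 (edgeR quasi-likelihood adjusted p of 3.38e-09 and 1.53e-09). NRF1 is controlled mainly after transcription, by processing of the protein, which these data do not measure.

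Genes of peptide loading and MHC class I, listed together with their activator Nlrc5, were mostly higher in 4OH-TAM-labelled astrocytes than in HER2CA day 15, but not than in controls. Of 12 measured, 9 were higher and 1 lower than in HER2CA day 15 (median 0.67), against 40.8% and 39.7% of all genes. In HER2CA day 15 compared with controls 1 was higher and 8 lower (median −0.32), against 37.3% and 38.4% of all genes. In 4OH-TAM-labelled astrocytes compared with controls, 5 were higher and 5 lower (median 0.06), against 31% and 28.2% of all genes. B2m, the light chain of MHC class I, was at 154 and 162 CPM in gliomaspheres, 319 and 289 CPM in 4OH-TAM-labelled astrocytes, 93.9 and 87.5 CPM in HER2CA day 15, and 215 and 223 CPM in control astrocytes. Tap1, the peptide transporter gene next to Psmb9, was at 24.5 and 23.9 CPM in gliomaspheres, 33.4 and 32.4 CPM in 4OH-TAM-labelled astrocytes, 23.1 and 30.6 CPM in HER2CA day 15, and 40.7 and 44.2 CPM in control astrocytes. For Tap1, unlike Psmb8, controls were the highest, and HER2CA day 15 overlapped gliomaspheres.

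Of 24 measured interferon-stimulated genes, 21 were higher and 2 lower in 4OH-TAM-labelled astrocytes than in HER2CA day 15, against 40.8% and 39.7% of all genes. In HER2CA day 15 compared with controls 6 were higher and 12 lower, against 37.3% and 38.4% of all genes. 4OH-TAM-labelled astrocytes had 23 higher and 0 lower than controls (median log2 fold change 1.81), against 31% and 28.2% of all genes. The summed level of the list was 171 and 173 CPM in gliomaspheres, 584 and 584 CPM in 4OH-TAM-labelled astrocytes, 430.4 and 414 CPM in HER2CA day 15, and 268 and 262 CPM in control astrocytes. Much of the sum in HER2CA day 15 came from Gbp2 and Gbp7, interferon-inducible GTPases picked out here after their values were seen. Gbp2 averaged 165 CPM in HER2CA day 15 and 27.7 CPM in control astrocytes, and Gbp7 averaged 135 CPM in HER2CA day 15 and 46 CPM in control astrocytes. The median log2 fold change of the list in HER2CA day 15 over controls was −0.45, so the sum and the median differ in direction. Irf1, which drives Psmb9 and Tap1, was at 9.68 and 12.5 CPM in gliomaspheres, 18.7 and 18.2 CPM in 4OH-TAM-labelled astrocytes, 10.7 and 9.59 CPM in HER2CA day 15, and 19.8 and 17.6 CPM in control astrocytes. Irf1 was lower in HER2CA day 15 than in controls (log2 fold change −0.89, adjusted p = 1.24e-05, edgeR quasi-likelihood). Nlrc5, an activator of MHC class I genes, was at 1.89 and 2.23 CPM in gliomaspheres, 6.32 and 6.54 CPM in 4OH-TAM-labelled astrocytes, 4.22 and 4.04 CPM in HER2CA day 15, and 3.26 and 2.97 CPM in control astrocytes.

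Immune cells carry more immunoproteasome than most other cells, and the summed microglia and macrophage markers were, like Psmb8, highest in 4OH-TAM-labelled astrocytes. The 20 measured of 22 microglia and macrophage markers summed to 166 and 163 CPM in gliomaspheres, 1317 and 1259 CPM in 4OH-TAM-labelled astrocytes, 272 and 288 CPM in HER2CA day 15, and 283 and 315 CPM in control astrocytes. Lyz2 alone was at 729 and 713 CPM in 4OH-TAM-labelled astrocytes. The sum was lowest in gliomaspheres, whereas Psmb8 was lowest in HER2CA day 15. Of the 20 markers, 19 were higher and 1 lower in 4OH-TAM-labelled astrocytes than in HER2CA day 15, against 40.8% and 39.7% of all genes. In HER2CA day 15 compared with controls 1 was higher and 12 lower, against 37.3% and 38.4% of all genes. Compared with controls, 17 were higher and 0 lower in 4OH-TAM-labelled astrocytes, against 31% and 28.2% of all genes. In gliomaspheres 1 was higher and 10 lower than in controls, against 32.5% and 32% of all genes. The median log2 fold change of the list in HER2CA day 15 over controls was −0.62. The summed levels of these groups overlapped, with a large share from Cd68, the 1 marker that was higher, at 124 and 135 CPM in HER2CA day 15 and 87.5 and 89.4 CPM in control astrocytes. All 6 defining markers were measured and 0 of them were at 0 counts in any library, although Tmem119 had 1 count in each HER2CA day 15 library. Among them, P2ry12 was highest in gliomaspheres, at 3.27 and 2.33 CPM, against 1.84 and 1.87 CPM in 4OH-TAM-labelled astrocytes. Cx3cr1, at 5.21 and 6.12 CPM in 4OH-TAM-labelled astrocytes, overlapped controls, at 6.07 and 5.81 CPM. The part of these cells in the immunoproteasome differences was not tested. Fibroblast and mural markers, 7 measured of 8, summed to 94.0 and 99.9 CPM in gliomaspheres, 337 and 304 CPM in 4OH-TAM-labelled astrocytes, 130 and 131 CPM in HER2CA day 15, and 174 and 167 CPM in control astrocytes. Pdgfra alone was at 49.0 and 50.9 CPM in gliomaspheres and 1.84 and 1.89 CPM in controls. Relative to controls, gliomaspheres had 1 of the 7 higher and 5 lower (median −1.75), against 32.5% and 32% of all genes. The part of fibroblast and mural cells was not tested either. Of 8 endothelial markers 2 were measured, Flt1 and Kdr, and 0 of the 3 defining ones (Cdh5, Cldn5 and Pecam1). Flt1 and Kdr summed to 38.4 and 32.0 CPM in gliomaspheres, 28.7 and 25.6 CPM in 4OH-TAM-labelled astrocytes, 3.16 and 3.00 CPM in HER2CA day 15, and 12.4 and 11.9 CPM in control astrocytes. In gliomaspheres Flt1 averaged 34.5 CPM and Kdr 0.651 CPM. Without a defining marker, these values do not show whether endothelial cells were present.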

How the data were processed

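Per the labels' protocols, stranded polyA libraries were sequenced; there were 8, with 2 in each of 4 groups. The deposited table gives 1 row per gene symbol with whole-number counts, left unscaled by the authors as their unequal totals show; each symbol reached 1 CPM in at least 2 libraries. The submitters' processing notes name FastQC, STAR (2.5.3a), featureCounts, mm10 and GRCm38 without saying what each was used for. No source used here gives the annotation or the strand setting of the counting: 9 members overlap another gene on the same strand and 18 on the other strand, so their reads may not be separable. Psma8 and Psmb11, whose symbols also match, had no row among the genes with counts.

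Columns were matched to samples by title. The test was edgeR 4.0.16 (R 4.3.3) with TMM factors and 1 mean per group over all 8 libraries, leaving 4 residual degrees of freedom at a common coefficient of variation of 0.0685. The quasi-likelihood p-values of 6 comparisons were adjusted by Benjamini-Hochberg over 13607 genes, with calls at 0.05. SE was taken from the log2 fold change and F, as the size of the change over the root of F. CPM levels use library sizes multiplied by their TMM factors; per-kb levels use exon unions of protein-coding transcripts in GENCODE M21 on GRCm38. Libraries of a group differed by more than sampling noise (chi-square per degree of freedom 4.05 to 723), and each was treated as 1 replicate. This spread does not show that they were separate cultures. The value of 723 was that of gliomaspheres, where Rn45s took 36.1% of the counts in library B. At low counts, as for Psmb8 and Psmb9, counting error adds to the spread.

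The members, gene lists, tests and the rule for named genes were chosen with earlier results of these data known. The rule allows any member, gives values in every library to the immunoproteasome members, Psmb5, Psmb6, Psmb7 and the largest change of each class in each comparison, and takes from the lists the 3 lowest p per comparison plus Nfe2l1, Nfe2l2, Pomp, Adrm1, Tap1, Irf1 and Nlrc5; 1 further gene of the rule is not reported here. Psmd2 and Psmd4 were given per-library values after these were seen. Alternatives were relative log expression, upper-quartile and no scaling factors, removal of Rn45s and Lars2, 2 filters (5 CPM in 2 libraries, and none), DESeq2 1.42.0, the replicate letter as a block, a fit of only the 2 groups at hand, and each library left out in turn.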

Additional observations from a re-analysis of the deposited data

How the results depend on the processing

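In 4OH-TAM-labelled astrocytes over HER2CA day 15, 4 members were higher and 40 lower, whichever library was left out (4 to 4 and 40 to 40); no scaling factors gave 3 higher and 28 lower, and upper-quartile factors 5 higher and 37 lower. In HER2CA day 15 over controls, 33 to 33 were higher and 5 to 6 lower without 1 library; upper-quartile factors gave 10 lower and no scaling factors 11 higher. In 4OH-TAM-labelled astrocytes over controls the range was 0 to 1 higher and 27 to 30 lower; no scaling factors gave 0 higher and 0 lower, and DESeq2 0 higher. In gliomaspheres over controls it was 0 to 3 and 20 to 29; relative log expression factors gave 2 higher, and no scaling factors 0 higher and 15 lower. In gliomaspheres over HER2CA day 15 it was 3 to 4 and 36 to 39, with 2 higher under no scaling factors. In gliomaspheres over 4OH-TAM-labelled astrocytes it was 7 to 16 and 4 to 9; upper-quartile factors gave 6 higher, and no scaling factors 0 higher and 4 lower. In that last comparison, no scaling factors turned the sign of Psma5 (−0.0281), Psmb2 (−0.16), Psmb4 (−0.17), Psmb5 (−0.0555), Psmc1 (−0.19), Psmc3 (−0.21), Psmd1 (−0.11), Psmd12 (−0.11), Psmd13 (−0.21), Psmd3 (−0.0801), Psmd6 (−0.0628), Psmd8 (−0.17), Psme3 (−0.24) and Psme4 (−0.16), and leaving out gliomaspheres replicate A turned Psmb1 to −0.20 (adjusted p = 0.0464, edgeR quasi-likelihood), against 0.31 without replicate B. The cause was not tested. With no scaling factors the median of all genes was −0.30 to −0.38 in the gliomasphere comparisons. The constitutive median was −0.74 in 4OH-TAM-labelled astrocytes over HER2CA day 15 with no scaling factors, against −0.86 with TMM factors. It was 0.41 against 0.46 in HER2CA day 15 over controls, and −0.36 against −0.43 in 4OH-TAM-labelled astrocytes over controls. A filter of 5 CPM in 2 libraries left 45 members, without Psmb9.

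Differences between A and B correlated from −0.0314 to 0.0554 between groups. With 2 libraries a group, such values cannot settle whether the letters mark shared cultures or preparations. With the replicate block the counts were 4 higher and 41 lower in 4OH-TAM-labelled astrocytes over HER2CA day 15, and 34 and 5 in HER2CA day 15 over controls. They were 1 and 31 in 4OH-TAM-labelled astrocytes over controls, 1 and 28 in gliomaspheres over controls, 4 and 39 over HER2CA day 15, and 13 and 7 over 4OH-TAM-labelled astrocytes.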
